A study of Mus musculus with 6 samples.

Results

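Endothelial and angiogenic genes were followed in soleus muscle of ovariectomized mice given 17β-estradiol (E2) or placebo. The set held 10 genes, namely the ligands Vegfa, Vegfb and Angpt1, the receptors Kdr, Flt1, Tek and Tie1, the junction genes Cdh5 and Pecam1, and the nitric oxide synthase gene Nos3. Each probe set on the array pools short probes against a transcript, and it was taken when the platform annotation gave it a single gene symbol and that symbol was one of the 10. This gave 16 of the 45101 probe sets on the Affymetrix mouse genome array, 4 of them for Flt1, 2 each for Vegfa, Cdh5 and Angpt1, and 1 for each of the other genes. The annotation used here gives no place of a probe set within its gene, so probe sets of 1 gene may read different transcripts. The OVX + E2 group (3 arrays) came from female C57BL/6 mice that were ovariectomized at 4 months of age and carried a pellet with 0.18 mg of E2 for 60 days. The OVX group (3 arrays) had the same operation and a placebo pellet for the same time. Mice with intact ovaries were not analysed here, so each difference is that of E2 replacement after ovariectomy. The sources used here do not give whether each array stands for its own mouse, so the p-values reflect the spread among these samples only, and that spread may be technical.

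The labels call the tissue left ventricle, whereas the methods call it soleus and the series title skeletal muscle. Of 13 skeletal muscle genes 12 lay in the top 5% of probe sets by brightness, against 1 of 12 heart genes. Myh6, the dominant cardiac myosin of adult mice, stood at percentile 66.1 of mean brightness, and Nppa, a hormone of the atria, at percentile 37.4. Of 29 markers of endothelial cells, all 29 were brighter than the median probe set. Each gene of these lists was read by its brightest probe set, which favours a high rank among all probe sets. The array medians lay between 6.90 and 6.93, whereas the values of an array spread with an SD of 1.14 to 1.16 in OVX + E2 and up to 1.22 in OVX. Over all probe sets the smallest adjusted p in the limma comparison was 0.308, and 96 probe sets passed the study's unadjusted threshold of 0.001. The paper reports a larger count at that threshold, which was not reproduced here. The count was 164 with median centring and 31 with cyclic loess. A list of fast-fibre genes differed widely between arrays, with mean deviations from the 6-array mean of 0.22, −0.17 and −1.08 in OVX + E2 and 0.12, 0.20 and 0.71 in OVX.

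Skeletal muscle is fed by a dense net of capillaries, each a tube of endothelial cells wrapped in places by pericytes. VEGF ligands made by muscle fibres and other cells bind the receptors KDR and FLT1 on endothelial cells, where KDR carries most of the growth signal and FLT1 binds VEGFA tightly with a weak kinase response. Angiopoietin 1 activates the receptor TEK, with TIE1 as its partner, and this pathway steadies mature vessels. VE-cadherin (Cdh5) and PECAM1 hold neighbouring endothelial cells together, and endothelial nitric oxide synthase (Nos3) makes the gas that relaxes the smooth muscle of the vessel wall. Estrogen receptors are found in endothelial cells, and estrogen is known to activate the endothelial synthase in cultured cells.

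The start regions of 6 of the 10 genes were matched in the RefSeq promoter table of assembly GRCm38.p6, which covers 250 bases before and 50 bases after each annotated start, with 2 starts for Vegfa. Cdh5, Pecam1, Angpt1 and Nos3 were not matched. A pair of these regions is shown for their contrasting letters. Of the 7 matched regions, that of Tie1 held the most matches to the ETS core GGAAG, a motif of the factor family that acts in endothelial genes. That of Vegfb held the most matches to the estrogen receptor core GGTCA, and whether these letters bear on the response to E2 was not tested. Both run 5′ to 3′ on the minus strand over the 250 bases before the start, chr4:118489850-118490099 for Tie1 and chr19:6987652-6987901 for Vegfb, and the capitals mark those motifs on either strand.
Tie1: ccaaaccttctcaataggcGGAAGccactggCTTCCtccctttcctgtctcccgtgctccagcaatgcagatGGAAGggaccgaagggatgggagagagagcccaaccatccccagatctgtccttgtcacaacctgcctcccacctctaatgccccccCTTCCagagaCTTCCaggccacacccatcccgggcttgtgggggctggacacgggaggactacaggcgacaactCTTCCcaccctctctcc
Vegfb: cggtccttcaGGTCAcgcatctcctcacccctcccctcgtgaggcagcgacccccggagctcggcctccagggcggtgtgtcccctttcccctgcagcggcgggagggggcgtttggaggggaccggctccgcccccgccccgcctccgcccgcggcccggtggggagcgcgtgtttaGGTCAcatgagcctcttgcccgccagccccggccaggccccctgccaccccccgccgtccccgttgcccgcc
The window of 300 bases held 7 matches of GGAAG in Tie1, 3 in Flt1, 1 in Kdr, 1 and 2 at the starts of Vegfa and 0 in Tek and Vegfb, whereas 71.4% of all 32851 promoters held at least 1. GGTCA was found 2 times in Vegfb, once each in Tek, Kdr and the second start of Vegfa, and 0 times in Tie1, Flt1 and the first start of Vegfa, against 40.5% of all promoters with at least 1 match. The full estrogen response element, with that core and its reverse complement around 3 bases, was absent from all 7 regions and was held by 0.07% of all promoters. The hypoxia response core ACGTG was found 1 time, at the second start of Vegfa, and 19.6% of promoters held it. The GC box GGGCGG was found 4 times in Vegfb, 3 times in Flt1, 2 times in Kdr, 2 and 1 times at the starts of Vegfa and 0 times in Tek and Tie1, against 35.7% of promoters. A match is a run of letters and was not tested for binding.

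The ligands did not differ between the groups at the study's threshold. Vegfa (chromosome 17, 46016993 to 46032377 in GRCm38.p6), the main growth factor for capillaries, is read by a bright and a dimmer probe set, and the bright one had log2 values of 9.51, 9.97 and 9.93 in OVX + E2 and 9.69, 9.87 and 9.79 in OVX. The groups overlapped, and the OVX + E2 arrays held both the highest and the lowest value. The difference, OVX + E2 minus OVX, was 0.02 ± 0.12 (SE), with a 95% interval of −0.27 to 0.31 and a limma p of 0.891. Without OVX + E2 replicate 1, the low array, it was 0.16 with a limma p of 0.0425. Leaving out any other single array gave a limma p of 0.618 or more. The dimmer Vegfa probe set read 8.61, 9.05 and 8.31 in OVX + E2 and 8.69, 8.57 and 8.81 in OVX. Here too the OVX + E2 arrays enclosed the OVX arrays, with an SD of 0.37 in OVX + E2 and 0.12 in OVX. Its difference was −0.03 ± 0.17 (SE). After cyclic loess, which removes a dependence of the difference on brightness, the 2 Vegfa probe sets gave 0.17 and 0.09.

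Vegfb (chromosome 19, 6982472 to 6987651), a ligand of FLT1 that muscle and heart make in quantity, had log2 values of 10.20, 10.49 and 10.04 in OVX + E2 and 10.49, 10.35 and 10.57 in OVX. OVX + E2 replicate 2 lay among the OVX arrays and the other OVX + E2 arrays below them. The difference was −0.23 ± 0.11 (SE), a fold of 0.854, with an interval of −0.49 to 0.04 and a limma p of 0.082 (adjusted p = 0.405). Probe sets of the same brightness, between 10 and 11, had a median difference of −0.16, and after cyclic loess the Vegfb difference was −0.08. Without OVX + E2 replicate 2 it was −0.35 with a limma p of 0.00468, and without OVX + E2 replicate 3 it was −0.13 with a limma p of 0.250. Without both arrays numbered 3 it was −0.08, and with a fast-fibre score as a covariate −0.09.

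Angpt1 (chromosome 15, 42424667 to 42676977), the activating ligand of TEK that pericytes and other supporting cells make, read 8.65, 8.74 and 8.63 on its brighter probe set in OVX + E2 and 9.04, 8.43 and 8.42 in OVX. OVX replicate 1 stood above all other arrays and the remaining OVX arrays below all of OVX + E2. The difference was 0.04 ± 0.16 (SE) with a limma p of 0.792. Without OVX replicate 1 it was 0.25 with a limma p of 0.00242, and leaving out any other single array gave a limma p of 0.713 or more. The dimmer probe set read 7.50, 7.72 and 7.30 in OVX + E2 and 7.58, 7.28 and 7.49 in OVX. Its groups overlapped, OVX replicate 1 did not stand apart on it, and its difference was 0.06 ± 0.12 (SE).

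**Figure D1:**
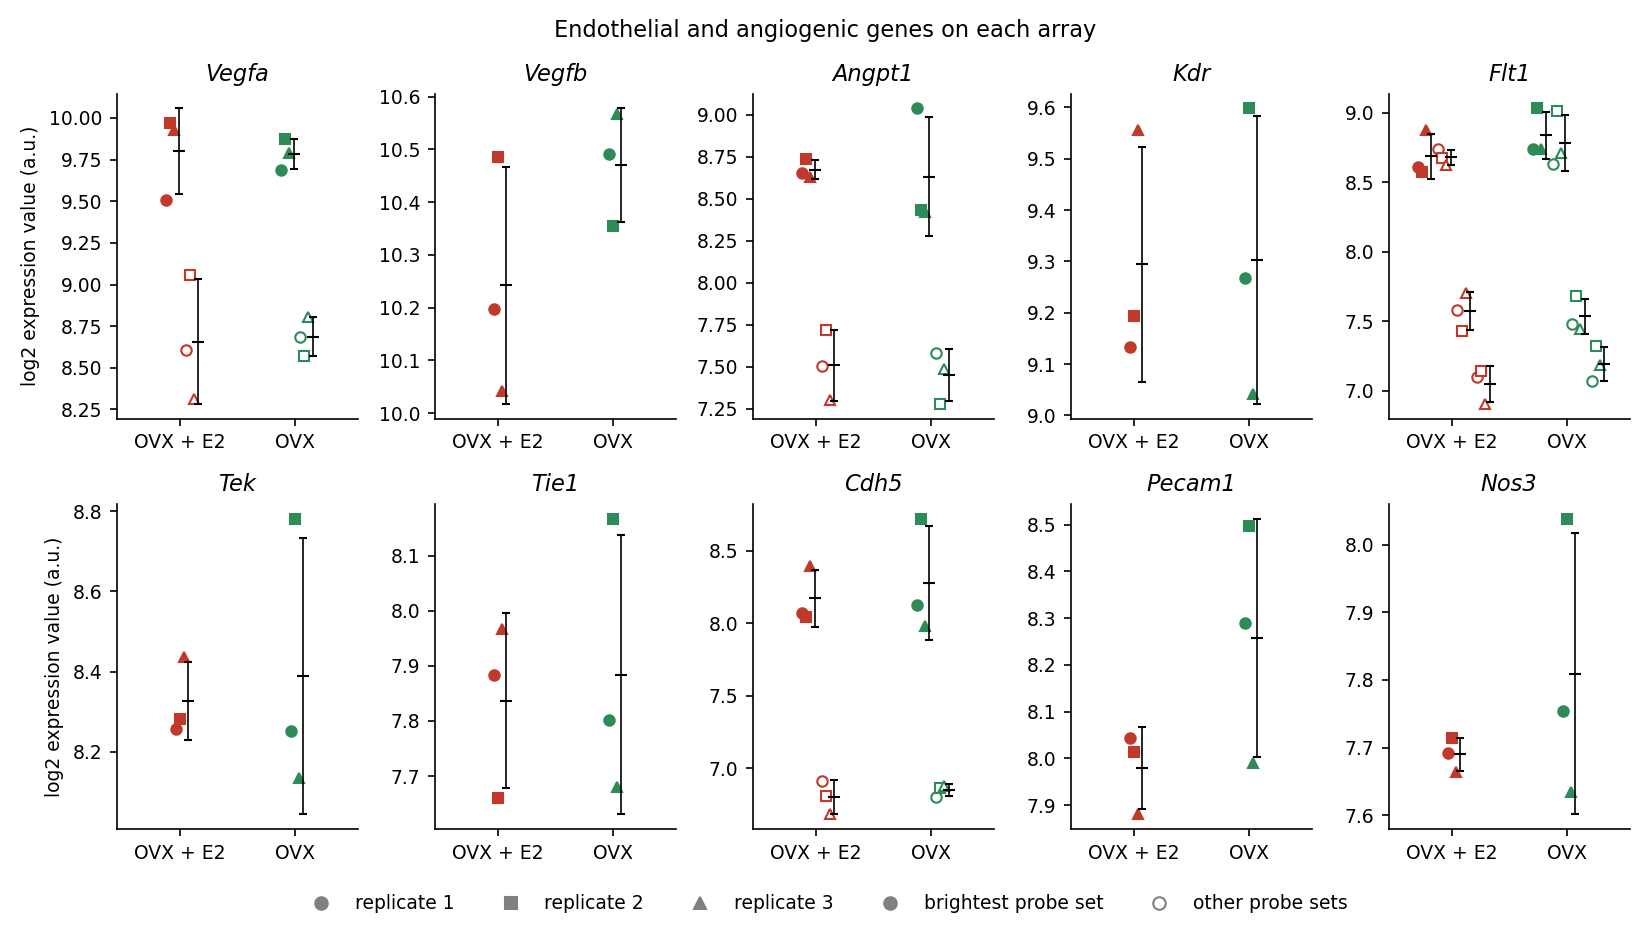
The log2 expression value in arbitrary units of each of the 10 genes on the 3 OVX + E2 arrays (red) and the 3 OVX arrays (green), with filled points for the brightest probe set, open points for the others, and bars for the mean ± SD (n = 3). The 2 groups overlap for all 16 probe sets, and OVX replicate 2 (green squares) is the highest of the 6 arrays on the brightest probe set of Kdr, Flt1, Tek, Tie1, Cdh5, Pecam1 and Nos3.

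The VEGF receptors did not pass the threshold either, and their intervals were wide. Kdr (chromosome 5, 75932827 to 75979072), the receptor that carries most VEGFA signals, had log2 values of 9.13, 9.19 and 9.56 in OVX + E2 and 9.27, 9.60 and 9.04 in OVX. Each group held 1 array near 9.6 and the others between 9.0 and 9.3. The difference was −0.0079 ± 0.16 (SE), with an interval of −0.38 to 0.37. Flt1 (chromosome 5, 147561604 to 147726438), whose transcripts also code for a soluble form that traps ligand, read 8.61, 8.57 and 8.87 in OVX + E2 and 8.74, 9.03 and 8.74 in OVX on its brightest probe set. OVX + E2 replicate 3 and OVX replicate 2 were the high arrays, and the difference was −0.15 ± 0.11 (SE) with a limma p of 0.200, and it was −0.24 without OVX + E2 replicate 3 (limma p of 0.0438) and −0.05 without OVX replicate 2 (limma p of 0.588). The other Flt1 probe sets, in falling order of brightness, gave −0.11, 0.04 and −0.14, each with an interval that holds 0, so the 4 did not share a sign.

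For the angiopoietin receptors, the OVX + E2 arrays spread less widely than the OVX arrays. Tek (chromosome 4, 94739086 to 94874976), the receptor of the angiopoietins, had log2 values of 8.26, 8.28 and 8.44 in OVX + E2 and 8.25, 8.78 and 8.13 in OVX. OVX replicate 2 was the highest and OVX replicate 3 the lowest of the 6 arrays. The difference was −0.06 ± 0.16 (SE) with a limma p of 0.701, and without OVX replicate 2 it was 0.13. Tie1 (chromosome 4, 118471191 to 118489849), the partner receptor with no ligand of its own that is firmly established, read 7.88, 7.66 and 7.97 in OVX + E2 and 7.80, 8.17 and 7.68 in OVX. The same OVX array was the highest, and the OVX + E2 arrays lay within the OVX range but for replicate 2, the lowest of all. The difference was −0.05 ± 0.13 (SE) with a limma p of 0.737, against 0.10 without OVX replicate 2.

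Among the junction genes, Pecam1 had the smallest p of the 16 probe sets. Pecam1 (chromosome 11, 106654213 to 106715281), an adhesion molecule at the contacts between endothelial cells, read 8.04, 8.01 and 7.88 in OVX + E2 and 8.29, 8.50 and 7.99 in OVX. Of the OVX arrays only replicate 3 reached down into the OVX + E2 range. The difference was −0.28 ± 0.12 (SE), a fold of 0.824, with an interval of −0.56 to 0.01 and a limma p of 0.0539 (adjusted p = 0.367). It was −0.16 without OVX replicate 2 (limma p of 0.152), −0.41 without OVX replicate 3 (limma p of 0.00149) and −0.20 after cyclic loess (limma p of 0.155). With any other single array left out, its limma p lay between 0.0773 and 0.147. Cdh5 (chromosome 8, 104101613 to 104144504), the cadherin of endothelial cell junctions, read 8.07, 8.05 and 8.39 in OVX + E2 and 8.12, 8.72 and 7.98 in OVX on its brighter probe set. The OVX arrays enclosed those of OVX + E2, and the difference was −0.11 ± 0.19 (SE) with a limma p of 0.601, the largest SE of the 16. The dimmer Cdh5 probe set was the only one of the 16 dimmer than the median probe set, with 6.91, 6.81 and 6.68 in OVX + E2, 6.80, 6.87 and 6.88 in OVX, and a difference of −0.05 ± 0.06 (SE).

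Nos3 (chromosome 5, 24364816 to 24384474), the endothelial nitric oxide synthase, had log2 values of 7.69, 7.71 and 7.66 in OVX + E2 and 7.75, 8.04 and 7.63 in OVX. The OVX + E2 arrays lay close together, with an SD of 0.025 against 0.21 in OVX, where replicate 2 stood high. The difference was −0.12 ± 0.10 (SE), a fold of 0.921, with an interval of −0.35 to 0.11 and a limma p of 0.256. Without OVX replicate 2 the Nos3 difference was −0.0039 with a limma p of 0.943, and without OVX replicate 3 it was −0.21 with a limma p of 0.0446.

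Over the 16 probe sets, 0 passed the unadjusted limma p of 0.001, against 0.213% of all probe sets. At an unadjusted p below 0.05, 0 were lower with E2 and 0 higher, against 9.43% and 4.35% of all probe sets. The 2 groups did not overlap in 0 of the 16, against 21.2% of all. The differences ran from −0.28 to 0.06, with SEs from 0.063 to 0.19, all 16 intervals of 95% held 0, and the smallest adjusted p was 0.367. The lowest bound was −0.56 and the highest 0.42, the bounds of Pecam1 and of the brighter Angpt1 probe set. Of the 16 differences 12 were below 0 with a median of −0.06, whereas 52.3% of all probe sets were below 0 with a median of −0.0049. In these arrays bright probe sets were lower in OVX + E2 as a class, with median differences of −0.12 between log2 values of 8 and 9 and −0.15 between 9 and 10, against 0.02 between 6 and 7. Set beside the median of their own brightness range, 9 of the 16 were above it and 7 below. After cyclic loess 7 of the 16 were below 0 with a median of 0.01, and 51.2% of all probe sets were below 0.

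**Figure D2:**
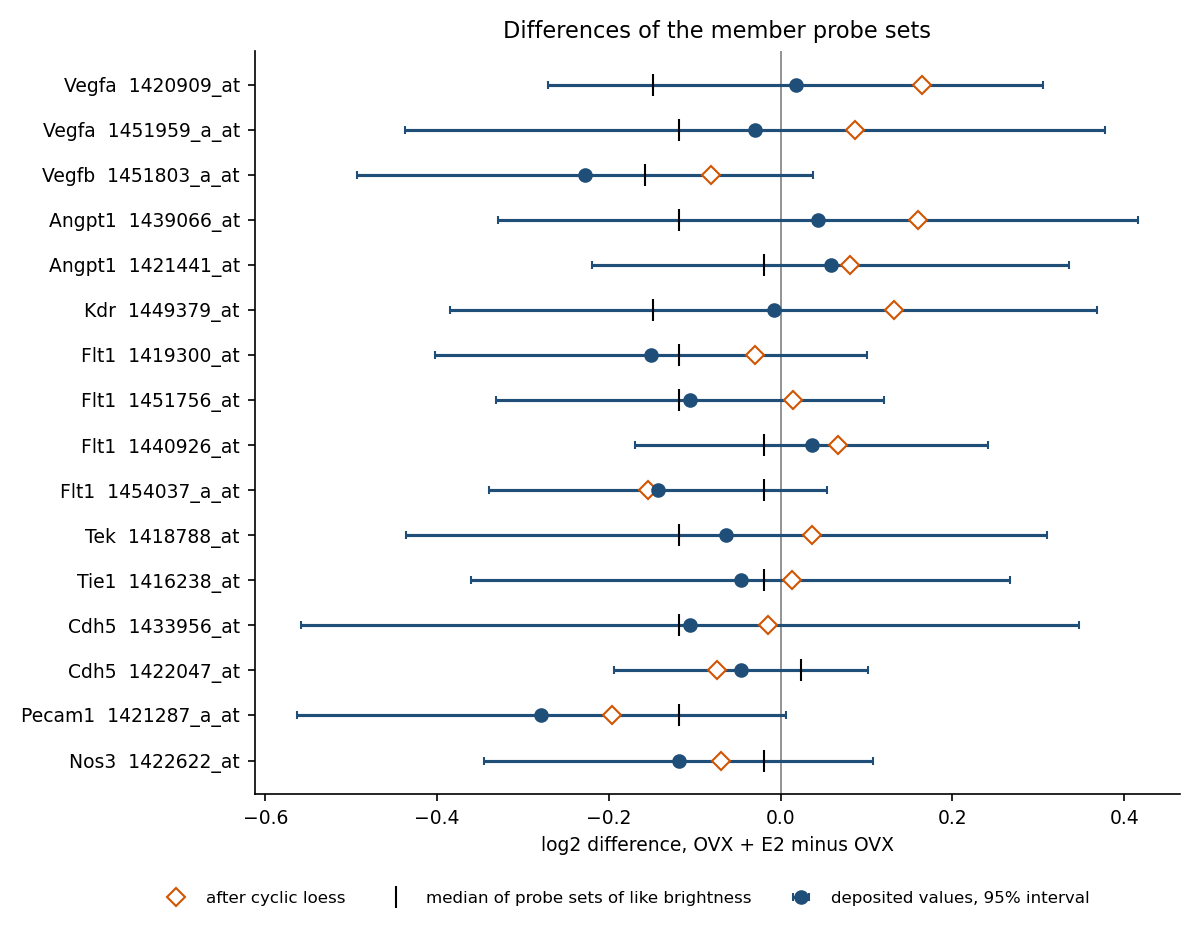
The log2 difference of each of the 16 probe sets, OVX + E2 minus OVX, from the deposited values with its 95% limma interval (blue), after cyclic loess (open diamonds), and the median difference of all probe sets in the same 1-unit range of mean brightness (black ticks). All 16 intervals hold 0, and Pecam1 at −0.28 and Vegfb at −0.23 lie farthest to the left.

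**Figure D3:**
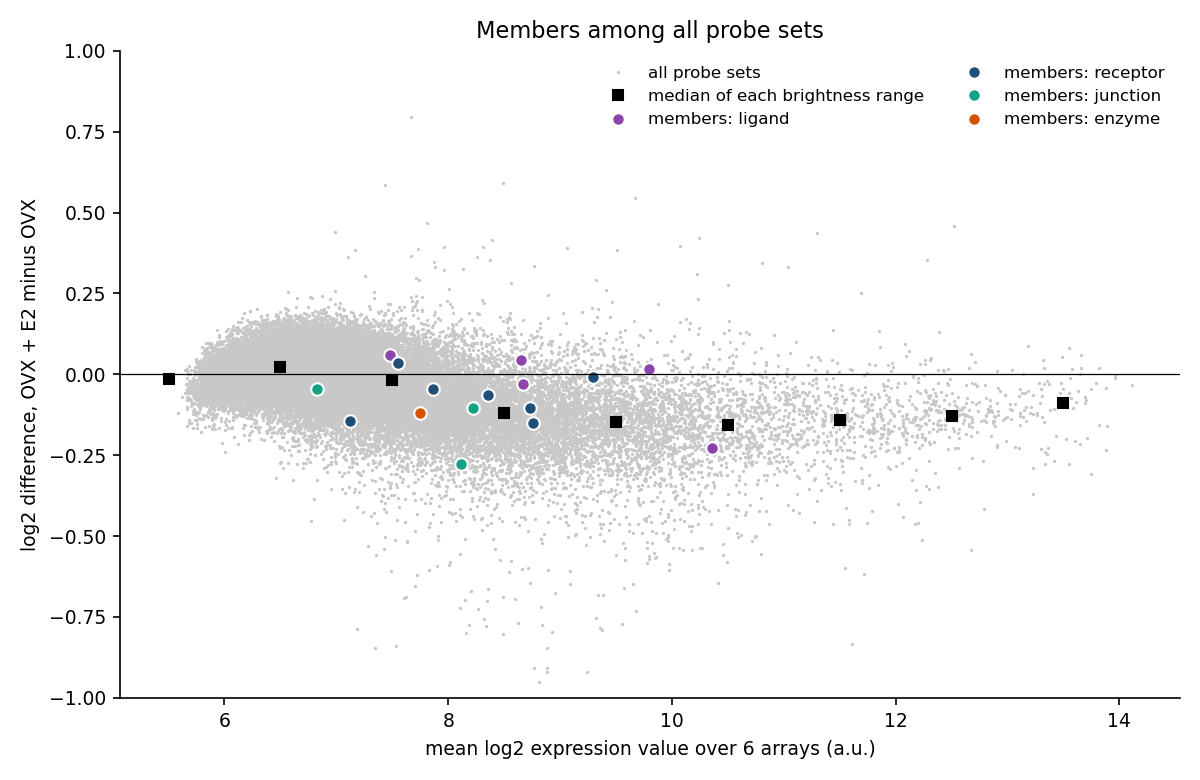
The log2 difference, OVX + E2 minus OVX, against mean brightness (log2 expression value, 6 arrays) for all probe sets (grey; 12 lie beyond the vertical axis), the median of each 1-unit range (squares) and the 16 probe sets of the 10 genes (coloured by role). The medians of the ranges above a log2 value of 8 lie between −0.16 and −0.09, and the 16 lie on both sides of the medians.

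The spread between arrays of 1 group was large for these genes. The within-group SD was 0.087 to 0.31, above the median SD of probe sets of like brightness in 16 of 16. It exceeded the size of the difference in 13 of 16, a share that was not counted over all probe sets. Much of this spread was shared. OVX replicate 2 was the highest of the 6 arrays for 9 of the 16 probe sets, whereas it was the highest for 17.6% of all probe sets. By role it was the highest for 6 of 7 receptor probe sets, 2 of 3 junction probe sets and the Nos3 probe set, and for 0 of 5 ligand probe sets. The 6 receptor and junction genes deviated from their 6-array means by −0.10, −0.14 and 0.08 in OVX + E2 and by −0.02, 0.36 and −0.17 in OVX, on average over their brightest probe sets. The 3 ligand genes gave −0.15, 0.13 and −0.07 in OVX + E2 and 0.14, −0.05 and −0.01 in OVX. The array was singled out after the values were seen, and these counts are a description.

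The same array stood high for other markers of endothelial cells. Of 29 endothelial genes, 26 were highest on OVX replicate 2 (89.7%, against 17.2% of all genes), and so were 19 of the 22 that are not among the 10. The exceptions were Vwf and Plvap, which were highest on OVX replicate 1, and Tal1, highest on OVX + E2 replicate 3. The count was 24 of 29 after cyclic loess and 23 of 29 after quantile normalization. The list's mean deviation was −0.08, −0.07 and −0.01 in OVX + E2 and 0.03, 0.30 and −0.17 in OVX, so the OVX arrays spanned the OVX + E2 arrays. Fibroblast genes also peaked there (6 of 8, with deviations of −0.20, 0.03 and −0.19 in OVX + E2 and 0.15, 0.31 and −0.09 in OVX), and so did 6 of 11 genes of pericytes and smooth muscle. Macrophage and leukocyte genes did so in 2 of 10, and the mean deviation of 5 fat cell genes was highest on OVX replicate 1, at 0.54. The part of other cell types in these differences was not tested. In whole muscle, more endothelial cells in a sample and more RNA per endothelial cell cannot be told apart. Without OVX replicate 2, 9 of the 16 probe sets were below 0 (50.3% of all), with a median of −0.02. Leaving out that array also put 13 of the 29 endothelial genes below 0, against 24 with all arrays. This count was 29 without both arrays numbered 3 and 28 with array weights. It was also 29, with a list median of −0.19, once the model held the fast-fibre score. After cyclic loess and after quantile normalization it was 17.

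**Figure D4:**
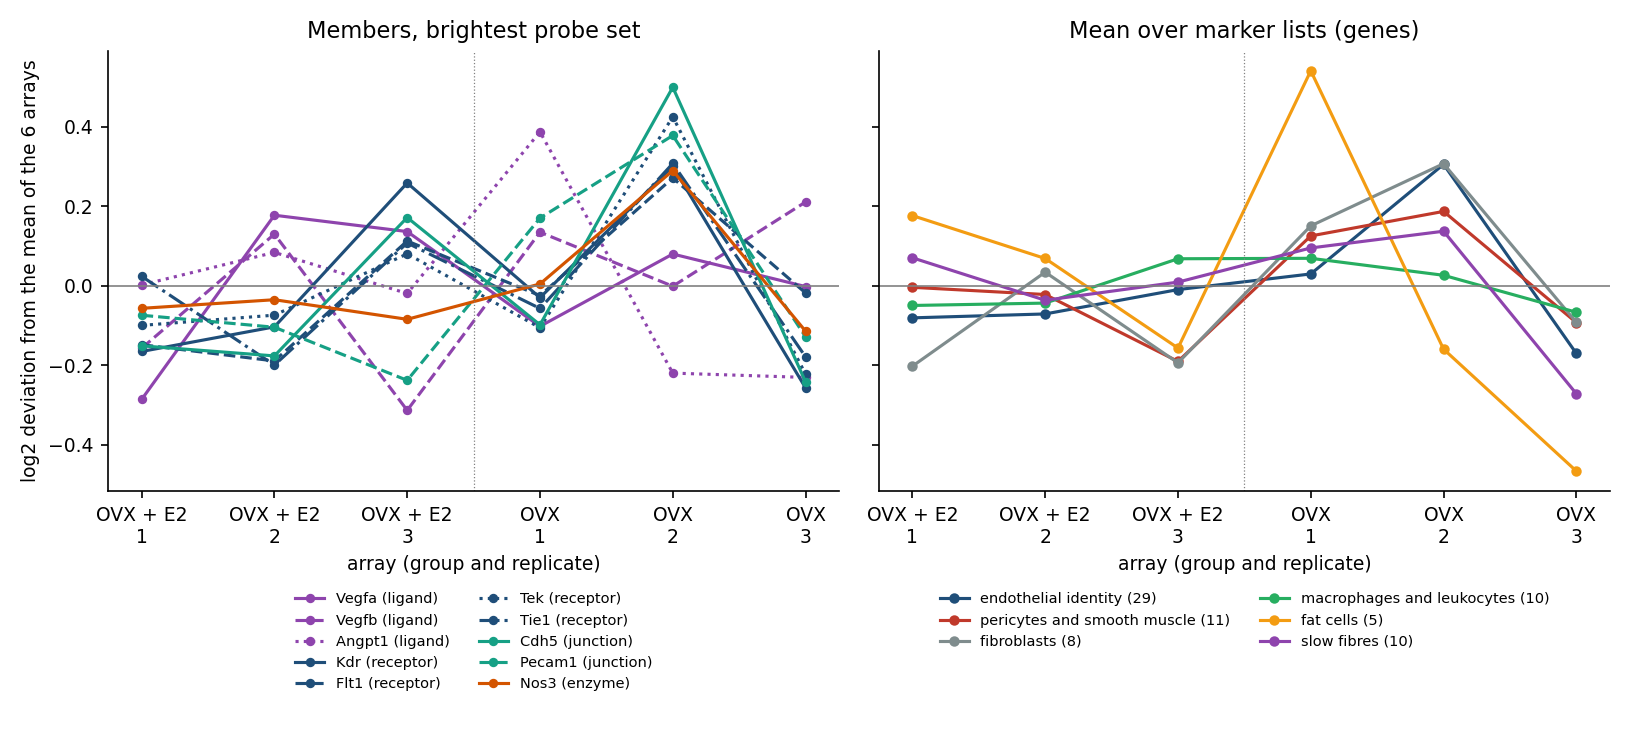
Log2 deviation from the mean of the 6 arrays, for the brightest probe set of each of the 10 genes (left) and as the mean over marker lists with the number of genes in brackets (right), on each OVX + E2 and OVX array; lines only join the values of a gene or list. Receptor and junction genes and the endothelial list peak on OVX replicate 2 (0.30 for the list), whereas the ligands do not.

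With 1 probe set per gene, the brightest, the lists around the 10 genes held few genes past a threshold. Over all 18194 genes 0.308% passed the p of 0.001, 25.2% did not overlap between the groups, 13.3% were lower and 4.62% higher at a p below 0.05, and 55% were below 0. Of all probe sets, 58.5% were below 0 between log2 values of 7 and 8, and 88.3% between 8 and 9. Of the 29 endothelial genes 24 were below 0 with a median of −0.09, and 0 passed at 0.05 in either direction. After cyclic loess 17 of the 29 were below 0 with a median of −0.03. The extremes were Aqp1, the water channel of capillaries, at −0.40 ± 0.23 (SE) and Vwf, the clotting factor stored in endothelial cells, at 0.08 ± 0.26 (SE). Without both arrays numbered 3, which lay farthest apart on the fast-fibre list, the median of the endothelial list was −0.25, and without OVX replicate 2 it was 0.02. Leaving out both arrays numbered 3 also put 3 of the 16 probe sets lower at 0.05 (7.54% of all). They were Kdr at −0.27, the brightest Flt1 probe set at −0.29 and Pecam1 at −0.36. Without OVX replicate 2, 0 of the 16 were lower at 0.05 (10.1% of all).

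In the VEGF family with its coreceptors, 7 of 10 genes were below 0 with a median of −0.04 (0.0086 after cyclic loess) and 0 passed at 0.05. Vegfc and Vegfd, the ligands of lymphatic growth, had differences of −0.04 and 0.05. In the angiopoietin and Tie pathway, 4 of 7 measured genes were below 0 with a median of −0.04 (0.04 after cyclic loess) and 0 passed at 0.05. Angpt2, the context-dependent antagonist of TEK, averaged 6.65 ± 0.10 in OVX + E2 and 6.69 ± 0.009 in OVX (SD, n = 3 each), a level below the array median. Of 9 genes of the Notch pathway in endothelium, which restrains sprouting, 6 were below 0 with a median of −0.02. Dll4, its ligand on tip cells, had a difference of 0.06 and its receptors Notch1 and Notch4 had −0.10 and −0.02. The ligand gene Jag2 was the only one of the 9 past 0.05, at −0.16 with a limma p of 0.012, and it did not overlap between the groups. After cyclic loess Jag2 gave −0.10 with a limma p of 0.0642, no longer past 0.05, and its dimmer probe set had a difference of −0.05 with a limma p of 0.345.

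Of 13 genes of nitric oxide and cGMP signalling, 11 were below 0 with a median of −0.11, and 1 was lower at 0.05. Nos1, the neuronal synthase that muscle fibres hold at their membrane, read 8.78, 8.67 and 8.50 in OVX + E2 and 8.99, 8.65 and 9.47 in OVX. OVX replicate 3 was high, as it was for the fast-fibre list, and the difference was −0.38 ± 0.19 (SE) with a limma p of 0.085. Nos2, the inducible synthase, differed by 0.01, and Cav1, a caveolar protein that binds the endothelial synthase, by −0.20 ± 0.15 (SE). Cav3, the caveolin of muscle fibres, was the gene past 0.05, with 8.38, 8.45 and 8.31 in OVX + E2, 8.59, 8.61 and 8.52 in OVX and a difference of −0.19 ± 0.05 (SE). Its groups did not overlap, and after cyclic loess its difference was −0.08.

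Egln2, which codes for an oxygen-sensing hydroxylase that marks hypoxia-inducible factors for decay, was the only gene of these lists at the p of 0.001. It read 9.59, 9.55 and 9.47 in OVX + E2 and 9.77, 9.85 and 9.93 in OVX, with all OVX + E2 arrays below all OVX arrays. Within each group its arrays fell in the same order as those of the fast-fibre list. The part of fibre type in the Egln2 difference was not tested. Egln2 was lower by 0.31 ± 0.05 (SE) on the log2 scale, with a limma p of 0.00065 and an adjusted p of 0.308. After cyclic loess its difference was −0.16 with a limma p of 0.0116, no longer past the threshold. Of the 12 hypoxia response genes 8 were below 0 with a median of −0.07, against 3 of 12 and a median of 0.02 after cyclic loess. Hif1a, Epas1, Arnt and Vhl, which encode the inducible factors, their partner and the ligase that removes them, had differences of −0.05, −0.14, −0.09 and −0.11, none past 0.05. Adm, a vessel-relaxing peptide gene, was the only one higher at 0.05, at 0.11 with a limma p of 0.0435, whereas its dimmer probe set had a difference of −0.07 with a limma p of 0.180.

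Among coactivators and receptors that act upstream of Vegfa, 3 of 7 were below 0 with a median of 0.01 and 0 passed at 0.05. Ppargc1a, a coactivator that induces Vegfa in muscle, read 10.28, 11.71 and 9.62 in OVX + E2 and 10.26, 10.05 and 10.92 in OVX. The OVX + E2 arrays differed among themselves more than the groups did, and the difference was 0.13 ± 0.50 (SE). Ppargc1b, Esrra and Esrrg had differences of −0.21, −0.08 and 0.04. Esr1, the gene of estrogen receptor α, had 8.51, 8.50 and 8.30 in OVX + E2 and 8.50, 8.48 and 8.99 in OVX, which overlapped, with a difference of −0.22 ± 0.14 (SE).

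Of 9 measured angiogenesis inhibitors 5 were below 0 with a median of −0.0026 (0.05 after cyclic loess) and 0 passed at 0.05. Thbs1 and Thbs2, the thrombospondins, had differences of 0.10 and −0.10, and Sema3a and Sema3f, semaphorins that compete for neuropilins, of 0.06 each. Of 4 measured genes of lymphatic endothelium 1 was below 0 with a median of 0.06. Prox1, the factor that sets lymphatic identity, differed by 0.12, Lyve1 by 0.06, Pdpn by 0.07 and Flt4, the receptor of VEGFC, by −0.05.

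Genes of the supporting cells of vessels had differences below 0 in the deposited values, as most probe sets above a log2 value of 8 did. Of all probe sets 88.3% were below 0 between 8 and 9 and 92.9% between 10 and 11, against 58.5% between 7 and 8. All 11 genes of pericytes and smooth muscle were below 0 with a median of −0.16, and 1 of them was lower at 0.05. This was Abcc9, a channel subunit gene, at −0.22 with a limma p of 0.0151, against −0.07 and a limma p of 0.309 after cyclic loess. Abcc9 was highest on OVX replicate 3, at 11.17, as the fast-fibre list was, and the cell source of its signal was not tested. Pdgfrb and Rgs5, markers of pericytes, had differences of −0.24 and −0.23, Cspg4 of −0.05 and Acta2 of −0.16. After cyclic loess 9 of the 11 were below 0 with a median of −0.05. All 8 fibroblast genes were below 0 with a median of −0.25, and 3 were lower at 0.05, Pdgfra at −0.13, Dcn at −0.28 and Dpt at −0.35. After cyclic loess 7 of the 8 were below 0 with a median of −0.12, and none of these 3 was past 0.05, with Pdgfra at −0.06 (limma p of 0.269), Dcn at −0.14 (0.156) and Dpt at −0.22 (0.0579). Col1a1 and Col3a1, the fibrillar collagens, had differences of −0.26 ± 0.16 and −0.47 ± 0.28 (SE). Of 10 macrophage and leukocyte genes 6 were below 0 with a median of −0.02, and Ptprc, Cd68, Adgre1 and Csf1r had differences between −0.11 and 0.02.

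**Figure D5:**
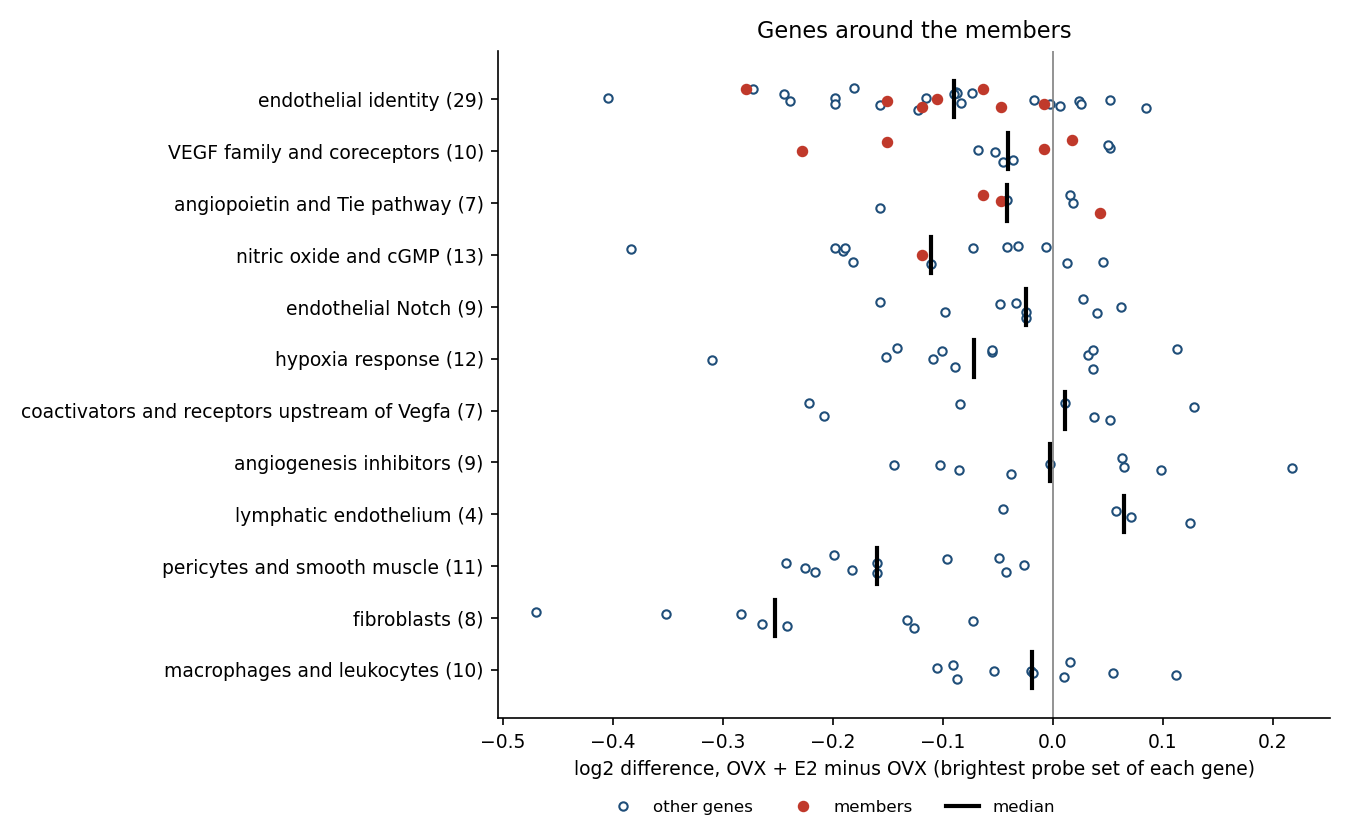
The log2 difference, OVX + E2 minus OVX, of the brightest probe set of each gene in 12 lists (number of measured genes in brackets), with the 10 genes in red, other genes as open circles and the median of a list as a bar. The medians run from −0.25 for fibroblasts to 0.06 for lymphatic endothelium, and the endothelial list has its median at −0.09.

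The genes most like the shared profile of Cdh5, Pecam1, Tek, Tie1 and Kdr were sought by Pearson correlation over the 6 arrays among 19411 probe sets brighter than the median. They were picked for their r, which is a description. Prkch, a gene of the protein kinase C family, had r = 0.999 and Spearman's rho = 1. It read 7.78, 7.75 and 7.92 in OVX + E2 and 7.82, 8.17 and 7.69 in OVX, with OVX replicate 2 again the highest. Gja1, the gap junction protein connexin 43, had r = 0.996 and rho = 0.943, and Zfp219, Brd9 and Gda had r of 0.992, 0.992 and 0.991. Without the 2 arrays farthest from the median of the profile, OVX replicates 2 and 3, r was 0.995 for Prkch and between 0.944 and 0.997 for the other 4. In all 362 probe sets (1.86%) had an r above 0.9, and 7 of the 22 endothelial genes outside the 10 did.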

How the data were processed

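RNA of each of 6 soleus samples was hybridized to 1 array. Per the paper's methods, the authors subtracted background, used variance stabilization for normalization and, with R 2.14.2, combined the probes through median polish. The deposited log2 values were used as they stand, on a scale that compresses differences of dim probe sets. Arrays have no read depth, and their number limits the precision. Scanner files were not used here. Symbols came from the platform annotation (34958 probe sets with 1 symbol, 932 with several, 9211 with none) and positions from RefSeq, GRCm38.p6. The 64 control probe sets stayed in the fit.

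The moderated linear model of limma 3.58.1 (R 4.3.3) was fitted to all probe sets, OVX + E2 minus OVX, two-sided, with no covariate. The call was the study's unadjusted p of 0.001, a p below 0.05 was counted as a description, and Benjamini-Hochberg adjustment ran over all probe sets. The scripts were tested on simulated data. Members, lists and tests were chosen with earlier results of these data known. Named genes were all members, the first 4 measured genes of each list, any list gene at 0.001, and the 5 probe sets most like the shared profile. Aqp1, Vwf, Plvap, Tal1, Jag2, Cav3, Adm, Esr1, Abcc9, Dpt, Myh6 and Nppa were named after their values were seen. Alternatives were quantile, cyclic loess (3 iterations) and median normalization, a brightness filter, a replicate block, a variance trend with intensity, array weights, a plain unpaired test, leaving out arrays, and a fast-fibre covariate. Protein identities of paralogs were not analysed here.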

Additional observations from a re-analysis of the deposited data

How the results depend on the processing

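With 3 arrays per group the precision of each difference is limited. None of the 16 probe sets passed the p of 0.001 under any alternative run, so no call was gained or lost at the study's threshold. The direction of small differences did change, and the cause was not tested. Quantile normalization and cyclic loess each left 7 of the 16 below 0, against 12 from the deposited values. In that order they gave 0.11 and 0.087 for the dimmer Vegfa probe set, 0.15 and 0.13 for Kdr, 0.034 and 0.015 for the second Flt1 probe set by brightness, 0.045 and 0.036 for Tek, and 0.030 and 0.014 for Tie1. They also moved the median of the pericyte and smooth muscle list to −0.036 and −0.047, against −0.16. Array weights gave −0.052 for the brighter Vegfa, 0.0045 for the dimmer Cdh5 and −0.062 for the brighter Angpt1 probe set. Leaving out both arrays numbered 3 gave −0.043 for the brighter and 0.20 for the dimmer Vegfa, −0.075 for the third Flt1, 0.028 for the dimmer Cdh5 and −0.041 for the brighter Angpt1 probe set, and −0.25 for the median of the endothelial list. The fast-fibre score as a covariate gave −0.12, 0.20, −0.064, 0.062 and −0.027 for the same 5 probe sets, in that order.

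The count of probe sets lower at an unadjusted limma p below 0.05 was 0 from the deposited values (9.43% of all probe sets). It was 1 with median centring, 1 with an intensity trend of the variance and 1 with array weights, Pecam1 in each, at a p of 0.0391, 0.0466 and 0.0258, where 12.4%, 7.18% and 10.1% of all probe sets were lower. It was 1 with the fast-fibre covariate, the brightest Flt1 probe set at a p of 0.0319, against 3.99% of all. It was 3 without both arrays numbered 3 (7.54% of all), and between 0 and 2 when 1 array was left out (5.7% to 10.1% of all). With the replicate number as a block the count was 1, Pecam1 at a p of 0.0196, against 7.69% of all. Same-numbered arrays deviated from their group means with correlations of −0.13, −0.20 and −0.34, and 0 of 3 OVX + E2 arrays were closest to their own number. Whether the numbers pair the arrays cannot be told from this, since the deviations also hold other differences between arrays, such as those of the fast-fibre list. Over all probe sets 21 passed 0.001 with the block, against 96 without it.

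Leaving out 1 array at a time, the differences ran from −0.067 to 0.16 for the brighter and −0.23 to 0.14 for the dimmer Vegfa probe set, −0.14 to 0.14 for Kdr, and −0.18 to 0.0082 for the second and −0.030 to 0.11 for the third Flt1 probe set. They ran from −0.25 to 0.12 for the brighter and −0.10 to 0.014 for the dimmer Cdh5, −0.19 to 0.13 for Tek, −0.15 to 0.095 for Tie1, and −0.062 to 0.25 for the brighter and −0.048 to 0.16 for the dimmer Angpt1 probe set. Vegfb, Pecam1, Nos3 and the other Flt1 probe sets stayed below 0 throughout. Between 13 and 28 of the 29 endothelial genes were below 0, the lowest count without OVX replicate 2, with list medians of −0.19 to 0.024, and the median of the pericyte and smooth muscle list ran from −0.23 to −0.038. In all, 43 of the alternative values of single probe sets changed sign and 212 did not. The brightness filter removed the dimmer Cdh5 probe set.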

Other observations

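Ppargc1a and the dimmer of the 2 Vegfa probe sets ran side by side over the arrays, a pair noticed after the values were seen and given as a description. That Vegfa probe set read 8.61, 9.05 and 8.31 in OVX + E2, where Ppargc1a read 10.28, 11.71 and 9.62. In OVX it read 8.69, 8.57 and 8.81 and Ppargc1a 10.26, 10.05 and 10.92, so within each group both put the arrays in the same order. Over the 6 arrays Pearson's r was 0.974 and Spearman's rho 0.943, and r was 0.938 without OVX + E2 replicates 2 and 3, the arrays farthest from the median of Ppargc1a. The brighter Vegfa probe set had an r of 0.227 with Ppargc1a and Vegfb an r of 0.706. The dimmer Angpt1 probe set had an r of 0.832, and the third Flt1 probe set by brightness ran the other way, with an r of −0.844. The pair had the highest r of the 16 probe sets set beside Ppargc1a, and both genes were read on the same arrays under the same normalization.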
